A study of Homo sapiens with 3 samples.

Results

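Kinesins are the microtubule motors encoded by the *KIF* genes and by *KIFC1*, *KIFC2* and *KIFC3*. They were chosen by name, as every probe whose RefSeq accession maps to a gene symbol of KIF followed by a number and letters or to one of the 3 KIFC symbols, so that *KIFAP3* and *KIFBP*, which bind kinesins, were not members. The rule found 41 kinesin genes with 59 probes among 22439 RefSeq-named genes and 58201 probes in all. By their best-known role, 14 were classed as mitotic, 17 as transport, 6 as ciliary and 4 as other kinesins. *KIF4B* and *KIF28P* were on the class list but were not analysed here. Of the 41 genes, 35 had a probe well above background on at least 1 array. *KIF2B*, *KIF5A*, *KIF6*, *KIF19*, *KIF26B* and *KIF27* did not and are given no fold change.

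The values come from A549, a cell line derived from a human lung adenocarcinoma, grown in RPMI medium. All cells received the transfection reagent Lipofectamine RNAiMAX. The mock culture received the reagent only, and the other cultures also received *miR-139-5p* or *miR-139-3p*, the guide and the passenger strand of the *miR-139* precursor, at 10 nM as the methods give for all precursors. The labels give no time after transfection, and no culture received a control miRNA. Total RNA was labelled with Cy3 and hybridised to Agilent arrays of 1 colour, 1 array for each of the 3 conditions (mock array, 5p array and 3p array).

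Kinesins use ATP to walk along microtubules or to take them apart. In dividing cells, the mitotic kinesins build the bipolar spindle, hold chromosomes in place and complete cytokinesis, and many of their mRNAs accumulate from G2 to mitosis and are low in cells that do not cycle. Transport kinesins carry vesicles, mitochondria and other cargo, are most diverse in neurons, and are needed in cells that do not divide as well.

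The 2 transfected strands differ in sequence, and above all in the seed, bases 2 to 8 counted from the 5′ end, through which a miRNA recognises its targets. The mature sequences from RefSeq (GRCh38.p14, minus strand, chr11:72615066-72615088 for the 3p strand and chr11:72615102-72615124 for the 5p strand) are shown with the seed in capitals because they are what the 2 transfected cultures received.
hsa-miR-139-3p: uGGAGACGcggcccuguuggagu
hsa-miR-139-5p: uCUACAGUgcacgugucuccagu
No transcript sequence of the kinesins was searched for these seeds.

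Each array had 60901 spots other than controls, and between 48.1% and 53.1% of them were well above background, with 0 saturated. The signal of a probe is given relative to the 75th percentile of its array (relative signal), and fold changes are differences of its log2. Repeated spots of 1 probe had a median SD between 0.048 and 0.057 on the log2 scale, which is the spread within an array. With 1 array per condition there is no spread between cultures, so no difference was tested, and precision is limited by this number of arrays. Slide 1 held the arrays of mock and the 5p strand, and slide 2 that of the 3p strand, so that slide and 3p transfection cannot be told apart. All 9 markers chosen for A549 (keratins, *EPCAM* and *CDH1*, aldo-keto reductases, *ALDH1A1* and *NQO1*) were well above background on every array. Of 5 markers of other cell types, *PTPRC* and *COL1A1* were well above background on every array and *CD3E* with the 3p strand only, while *PECAM1* was not on any array and *CD68* was not analysed here. These markers also differed between arrays. Of the A549 markers, 4 of 9 were lower than mock by over 0.5 on the log2 scale with the 3p strand and 1 was higher, from −1.43 for *AKR1B10* to 0.97 for *EPCAM*, where 27.9% of all genes were lower and 26.5% higher. With the 5p strand 4 were lower and 0 higher, from −0.85 for *KRT8* to 0.31 for *AKR1B10*, where 12.3% of all genes were lower and 10.7% higher. *PTPRC* was at 1.26 with the 3p and 0.31 with the 5p strand, and *COL1A1* at −0.61 and 1.41. Their part in the kinesin values was not tested.

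After *miR-139-3p*, mitotic kinesins were lower than in mock and transport kinesins as a group were not. A gene is called lower or higher where its log2 fold change, averaged over its probes, passed 0.5 in either direction, and a probe well above background in only 1 of the 2 conditions gives a bound instead. Of the 13 mitotic kinesins with a value, 11 were lower and 0 were higher, with a median log2 fold change of −1.80. Over the 15572 genes with a value, 27.9% were lower and 26.5% were higher, with a median of −0.05. Of the 16 transport kinesins with a value, 3 were lower and 4 were higher, with a median of 0.00. The difference between the medians of the 2 classes was −1.80. Of the 13 mitotic kinesins, 9 lay below the lowest transport kinesin, *KIF21B* at −1.28, and 0 transport kinesins lay below the mitotic median. For scale, the median SD between probes of one gene was 0.28 over 3684 genes. In RNA from whole cultures, fewer cells in mitosis and less of these mRNAs per cell cannot be told apart.

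**Figure D1:**
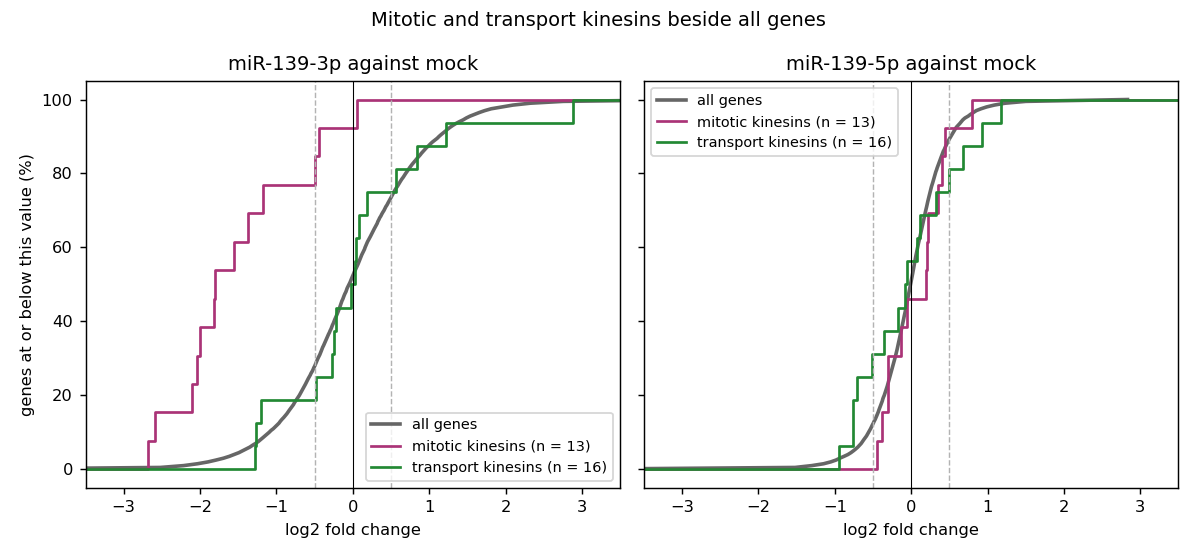
Cumulative distribution of the log2 fold change against mock (x axis) as the percentage of genes at or below each value (y axis), for all genes in grey, the 13 mitotic kinesins and the 16 transport kinesins, with miR-139-3p on the left and miR-139-5p on the right. Dashed lines mark 0.5 in either direction. The mitotic curve lies to the left of all genes after miR-139-3p, with a median of −1.80, and close to them after miR-139-5p, with a median of 0.20.

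After *miR-139-5p* the same motors lay near mock. Of the 13 mitotic kinesins, 0 were lower and 1, *KIF20B*, was higher, with a median of 0.20 and a range from −0.44 for *KIF22* to 0.80 for *KIF20B*. Over the 15018 genes with a value in this comparison, 12.3% were lower and 10.7% were higher, with a median of −0.01. Of the 16 transport kinesins, 5 were lower and 3 were higher, with a median of −0.06. Both comparisons share the mock array. In the direct comparison of the 2 miRNA arrays, 11 of 13 mitotic kinesins were lower with *miR-139-3p* than with *miR-139-5p* and 0 were higher, with a median of −1.81, and 13 of 13 lay below the median of the transport kinesins, which was −0.20. The background of that comparison was 27.9% lower and 26.4% higher among 15428 genes.

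**Figure D2:**
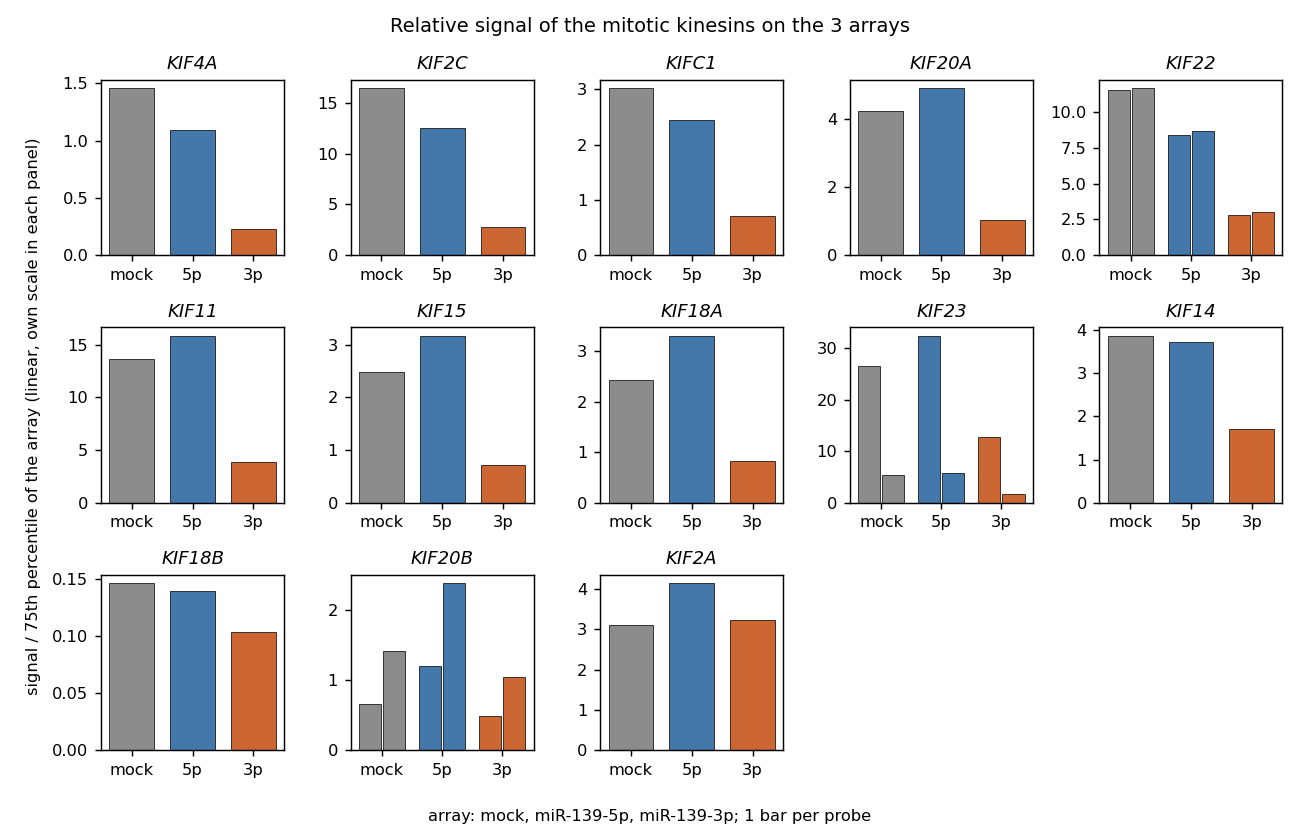
Relative signal (signal divided by the 75th percentile of the array, linear axis starting at 0, own scale in each panel) of the 13 measured mitotic kinesins on the mock, 5p and 3p arrays, with 1 bar for each probe that was well above background on all 3 arrays. In 12 of the 13 panels the miR-139-3p bars are the lowest, and KIF2A is the exception.

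The motors that set up the bipolar spindle were all lower after *miR-139-3p*, at or below the mitotic median. *KIF11*, known as Eg5, slides antiparallel microtubules apart and so separates the spindle poles. Its relative signal was 13.6 in mock, 15.9 on the 5p array and 3.86 on the 3p array, which made it 3.54-fold lower than mock after the 3p strand and put it at 0.22 (log2 fold change) after the 5p strand. *KIF15*, which helps to keep the spindle bipolar beside *KIF11*, had relative signals of 2.48, 3.17 and 0.714 in the same order, or log2 fold changes of −1.80 with the 3p strand and 0.35 with the 5p strand. *KIFC1*, a minus-end directed motor that focuses the poles and clusters extra centrosomes, had 3.02, 2.45 and 0.6997, or −2.11 and −0.30. For each of these motors the *miR-139-3p* array was the low one and the mock and 5p arrays lay near each other.

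Among the motors that shorten microtubules, the members of one family parted. *KIF2C* (MCAK), the depolymerase at centromeres that frees wrongly attached microtubules, had relative signals of 16.5 in mock, 12.6 on the 5p array and 2.74 on the 3p array. Its level after *miR-139-3p* was 6.02-fold lower than in mock, and 0.443% of all genes had a lower log2 fold change. *KIF2A*, the kinesin-13 of the spindle poles that is also active in neurons, had 3.11, 4.13 and 3.24, or log2 fold changes of 0.06 with the 3p strand and 0.41 with the 5p strand. The sign of the first of these turned without scaling between arrays, at −0.15. *KIF2B*, the remaining kinesin-13 of the mitotic class, was not well above background on any array. *KIF18A*, a kinesin-8 that dampens the oscillation of chromosomes, had 2.43, 3.31 and 0.825, or −1.56 with the 3p strand and 0.45 with the 5p strand.

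*KIF18B*, the kinesin-8 that trims astral microtubules, is on the list of targets that the study drew from these arrays, so its place among the 11 lower mitotic kinesins is not independent evidence. It was also dim. Its first probe read 0.146 in mock, 0.1399 on the 5p array and 0.104 on the 3p array, or log2 fold changes of −0.50 and −0.07 against mock for the 3p and the 5p strand. The other read 0.105 and 0.0914 and was not well above background with *miR-139-3p*, which gives a bound of −0.97 for that strand and a value of −0.20 for the 5p strand. The gene's value of −0.5008 lay just past the threshold. It ranged from −0.98 in the deposited log2 values to −0.03 after normexp background correction. The study's own list gives *KIF18B* a larger decrease, outside this range, and the reason for the difference was not tested.

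Both chromokinesins, which bind chromosome arms, were lower after *miR-139-3p*. *KIF4A*, which also sets the length of the central spindle, had the lowest log2 fold change of all kinesins as reported, though not under every alternative. The probe measured on all arrays read 1.46 in mock, 1.09 on the 5p array and 0.227 on the 3p array, a 6.42-fold lower value than mock. Its second probe read 6.48 in mock and 5.67 with *miR-139-5p*, and its spot on the *miR-139-3p* array was an outlier and was left out, so that the gene's value of −2.68 rests on 1 probe. The value was −2.38 with outlier spots kept and −1.29 after normexp background correction, and *KIF2C*, at −2.59 and −2.41, was lower than *KIF4A* under both. *KIF4B* is a near copy of *KIF4A*, and whether the probes tell them apart was not tested. *KIF22* (Kid), which pushes chromosome arms away from the poles, had 2 probes that read alike: 11.5 in mock, 8.38 on the 5p array and 2.80 on the 3p array for one, and 11.7, 8.68 and 2.99 for the other. The gene was 4.01-fold lower than mock with *miR-139-3p*, with an SD of 0.06 on the log2 scale over its 2 probes, which is a spread of probes and not of cultures. With *miR-139-5p* it was at −0.44 ± 0.02 (SD over 2 probes).

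The kinesin-6 motors and *KIF14*, which act at the central spindle and in cytokinesis, ran from −2.05 for *KIF20A* to −0.44 for *KIF20B* after *miR-139-3p*. *KIF20A* (MKLP2) brings the chromosomal passenger complex to the spindle midzone. Its relative signal was 4.24 in mock, 4.91 on the 5p array and 1.03 on the 3p array, a 4.13-fold lower value than mock. *KIF23* (MKLP1), the motor of centralspindlin, read 26.5, 32.4 and 12.8 on one probe and 5.31, 5.69 and 1.65 on the other, with log2 fold changes after *miR-139-3p* of −1.04 and −1.69. *KIF14*, which acts in cytokinesis together with citron kinase, read 3.87, 3.73 and 1.72, or −1.17 with the 3p strand and −0.05 with the 5p strand. *KIF20B* (MPP1), also a cytokinesis motor, was the one mitotic kinesin past the threshold with *miR-139-5p*. Its probes read 0.665, 1.20 and 0.486, and 1.42, 2.39 and 1.05, so that the gene was at −0.44 ± 0.01 with the 3p strand and 0.80 ± 0.07 with the 5p strand (SD over 2 probes). Of the 11 alternative ways of processing run for this gene, 4 put its value for *miR-139-3p* below −0.5 and 11 kept its value for *miR-139-5p* above 0.5.

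**Figure D3:**
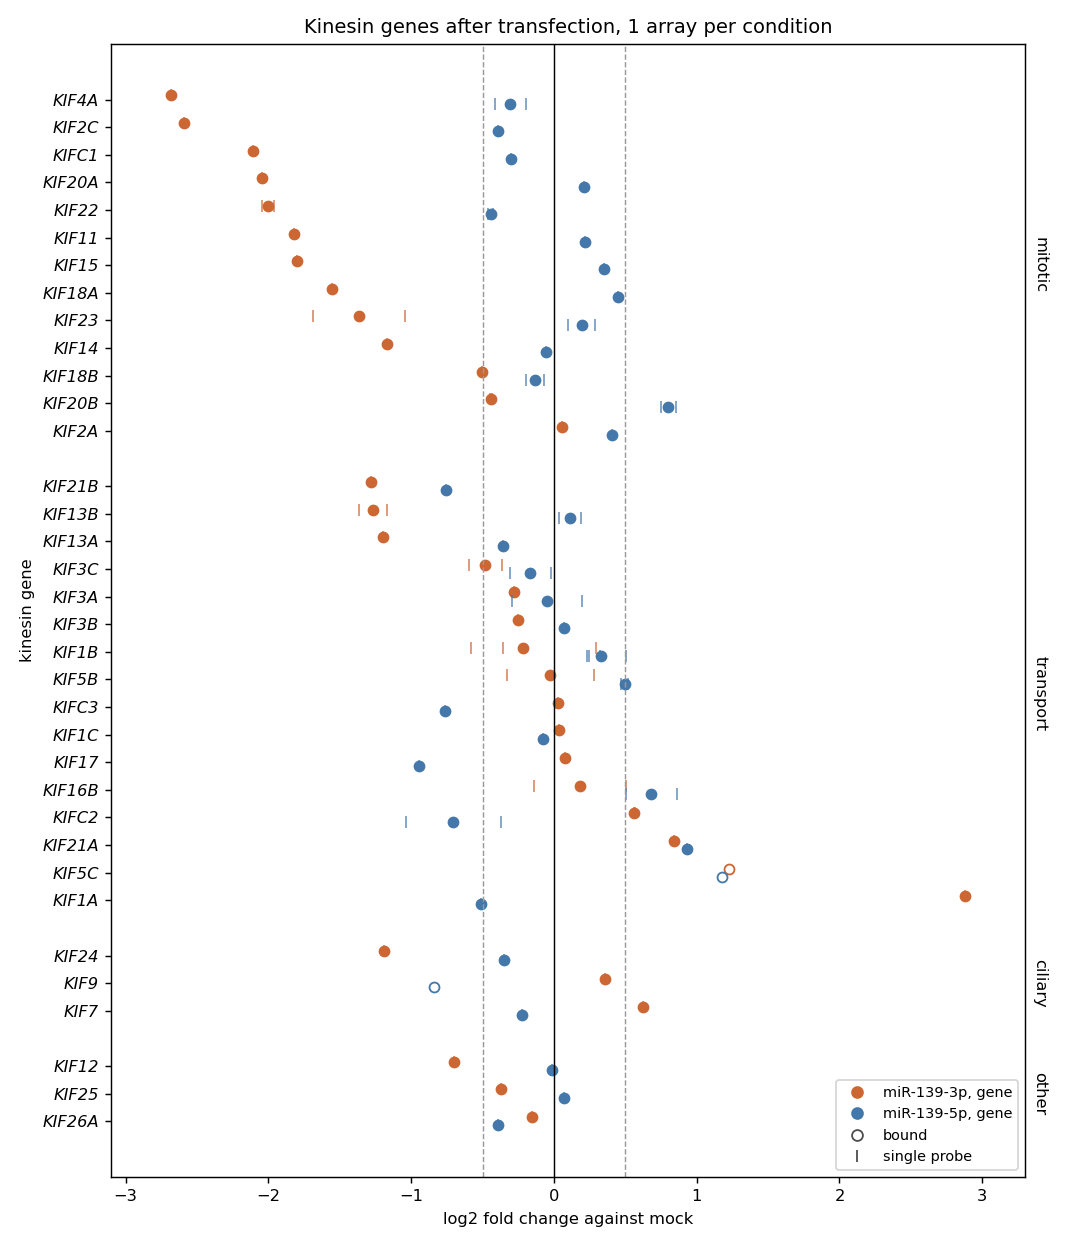
Log2 fold change against mock (x axis) of the 35 kinesin genes with a value, by class (y axis), in orange for miR-139-3p and in blue for miR-139-5p. Filled circles are the mean over the probes of a gene, open circles are bounds, upright ticks are single probes, and dashed lines mark 0.5 in either direction. Mitotic kinesins run from −2.68 to 0.06 after miR-139-3p, and KIF1A stands at 2.88.

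The mRNAs of proteins that work with the mitotic kinesins were lower as well, on the same array. These partners were listed with earlier results of these data known, so they are not independent evidence. Of 20 partners listed (Aurora kinases and their passengers, centralspindlin, spindle assembly and cytokinesis factors, and *CENPE*, the kinesin-7 of kinetochores whose symbol the naming rule does not take), 19 had a value, and after *miR-139-3p* 18 were lower and 0 were higher, beside 27.9% and 26.5% of all genes, with a median of −1.45. They ran from −1.93 for *CDCA8*, a chromosomal passenger, to −0.40 for *ECT2*, the exchange factor that starts furrow ingression. The whole chromosomal passenger complex, named after its values were seen because *KIF20A* carries it, was lower: *AURKB* at −1.79, *BIRC5* at −1.89, *INCENP* at −1.56 and *CDCA8* as above. After *miR-139-5p*, 0 of the 19 partners were lower and 2 were higher, beside 12.3% and 10.7% of all genes, with a median of −0.03, from −0.40 for *AURKA* to 1.13 for *CENPE*. Between the miRNA arrays 17 of 19 were lower with *miR-139-3p* and 0 were higher, beside 27.9% and 26.4% of all genes, with a median of −1.42, and *CENPE* had the lowest value at −2.49.

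Transport kinesins held the highest and some of the lower values. *KIF1A*, the kinesin-3 that carries precursors of synaptic vesicles along axons, read 0.287 in mock, 0.201 on the 5p array and 2.12 on the 3p array. Its *miR-139-3p* signal stood apart from both others and was 7.37-fold higher than mock, and 0.398% of all genes had a higher log2 fold change. The value of 2.88 rests on 1 probe and was 1.40 after normexp background correction. With the 5p strand it was at −0.51 on the log2 scale, which 7 of 11 alternatives kept below −0.5.

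The other transport kinesins that were higher after *miR-139-3p* were *KIF5C*, *KIF21A* and *KIFC2*, all best known from neurons. This is not a trait of neuronal kinesins as a group, since *KIF21B*, *KIF3C* and *KIF17* were at −1.28, −0.48 and 0.08. *KIF5C*, a conventional kinesin of axons, was not well above background in mock and read 0.117 on the 5p array and 0.120 on the 3p array, at least 2.27-fold and at least 2.34-fold higher than mock. *KIF21A*, a kinesin-4 that restrains microtubule growth, read 0.409 in mock, 0.779 on the 5p array and 0.732 on the 3p array, or log2 fold changes of 0.93 with the 5p strand and 0.84 with the 3p strand. For these genes the mock array was the low one and the miRNA arrays lay close together. *KIFC2* went opposite ways: its probes read 1.91, 1.48 and 2.82, and 0.169, 0.0824 and 0.250, in the order mock, 5p strand and 3p strand. The gene was at 0.56 with *miR-139-3p*, where 6 of 11 alternatives kept it above 0.5, and at −0.70 ± 0.47 (SD over 2 probes) with *miR-139-5p*. After normexp background correction *KIFC2*, *KIF5C* and *KIF21A* were at 0.35, 0.31 and 0.32 with the 3p strand and at −0.19, 0.27 and 0.36 with the 5p strand, all within the threshold.

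The 3 transport kinesins that were lower after *miR-139-3p* belong to the kinesin-3 and kinesin-4 families. *KIF13B*, a vesicle motor, read 8.18 in mock, 9.34 on the 5p array and 3.63 on the 3p array on one probe, and 1.35, 1.38 and 0.523 on the other. The gene was at −1.27 ± 0.14 with the 3p strand (SD over 2 probes), between the mitotic kinesins *KIF23* at −1.37 and *KIF14* at −1.17. *KIF13A*, which moves endosomes and melanosomes, read 0.259, 0.202 and 0.113, or −1.20 with *miR-139-3p*, and was at −0.19 after normexp background correction. *KIF21B*, a kinesin-4 of dendrites, was the one kinesin lower after both strands, with relative signals on its 1 probe above background of 0.699 in mock, 0.413 on the 5p array and 0.288 on the 3p array, or −0.76 and −1.28. After normexp background correction it was at −0.29 and −0.47.

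Other transport kinesins passed the threshold with *miR-139-5p* and not with *miR-139-3p*, a difference that was not tested. *KIF17*, a kinesin-2 of dendrites and cilia, read 0.370 in mock, 0.192 on the 5p array and 0.390 on the 3p array, a log2 fold change of −0.95 for the 5p strand and 0.08 for the 3p strand. The first of these was −0.32 after normexp background correction, under the threshold. *KIFC3*, a minus-end directed motor of epithelial cells, read 3.09, 1.82 and 3.14, or −0.77 and 0.03, and its value with *miR-139-5p* stayed below −0.5 under all 11 alternatives. In both, the mock and 3p arrays lay together and the *miR-139-5p* array was low. *KIF16B*, the early endosome motor, read 2.51, 3.55 and 2.27 on one probe and 1.64, 2.98 and 2.33 on the other, so that the gene was at 0.68 with *miR-139-5p*. With *miR-139-3p* its probes parted, at −0.14 and 0.50.

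The remaining transport kinesins, with cargo in many tissues, lay within 0.5 of mock as reported, some of them close to it. *KIF5B*, the conventional kinesin of most tissues, was at −0.03 with *miR-139-3p*, but its probes gave −0.33 and 0.28, and it was at 0.49 with *miR-139-5p*, where 2 of 11 alternatives put it above 0.5. *KIF1B*, a mitochondrial and vesicle motor, was at −0.21 from probes at −0.58, −0.35 and 0.29, and a further probe was left out on the *miR-139-3p* array as an outlier. For both genes the probe chosen decides the sign with *miR-139-3p*. The brightest probe of *KIF1B*, taken by itself, passed the threshold, at −0.58 with the 3p strand and 0.50 with the 5p strand. That of *KIF5B* passed it with the 5p strand, at 0.52. *KIF3A*, *KIF3B* and *KIF3C*, the kinesin-2 motors that also serve intraflagellar transport or neurons, were at −0.28, −0.25 and −0.48 with *miR-139-3p*, and between −0.17 and 0.07 with *miR-139-5p*. The value of *KIF3C* with the 3p strand was below −0.5 under 5 of 11 alternatives. The probes of *KIF3A* parted with *miR-139-5p*, at 0.20 and −0.29. *KIF1C*, the Golgi and integrin vesicle motor, read 76.2, 72.2 and 78.3, or 0.04 and −0.08.

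The adaptors that link kinesins to cargo, and the subunits of dynein, the motor that runs the other way, were counted in the same way. Of 15 cargo adaptors listed, 14 had a value with *miR-139-3p*, of which 2 were lower (14.3%) and 5 were higher (35.7%), with a median of 0.10, beside 27.9% and 26.5% of all genes. They ran from −1.21 for *KLC1*, a light chain of conventional kinesin, to a bound of 4.46 for *FEZ1*, an adaptor of axonal transport that was well above background with the 3p strand only. With *miR-139-5p*, 3 of 14 were lower and 1 was higher, beside 12.3% and 10.7% of all genes, with a median of −0.10, from −0.87 for the light chain *KLC2* to 0.51 for *MAPK8IP3*, a JNK scaffold. Of 17 subunits of cytoplasmic dynein and dynactin, 16 had a value, and with *miR-139-3p* 4 were lower, a share near that of all genes, and 0 were higher, with a median of −0.07, from −1.01 for the light chain *DYNLL2* to 0.39 for *DCTN5*. With *miR-139-5p*, 2 were lower, at 12.5% again near the share of all genes, and 0 were higher, with a median of −0.03, from −0.75 for *DYNLRB1* to 0.42 for *DYNLT3*. Between the miRNA arrays 3 of 16 subunits were lower with *miR-139-3p* and 4 were higher, beside 27.9% and 26.4% of all genes, with a median of −0.02.

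Among the ciliary kinesins, *KIF24*, a kinesin-13 that restrains the assembly of primary cilia, read 1.00 in mock, 0.784 on the 5p array and 0.440 on the 3p array, or −1.19 with the 3p strand and −0.35 with the 5p strand, the first of which was −0.59 after normexp background correction. *KIF7*, a regulator of Hedgehog signalling at the cilium tip, read 0.348, 0.297 and 0.536, or 0.63 and −0.23. The first of these stayed above 0.5 under 6 of 11 alternatives. *KIF9*, a motor of motile cilia, read 0.103 in mock and 0.132 with *miR-139-3p* and was not well above background with *miR-139-5p*, at least 1.79-fold lower there than in mock, though at −0.14 on the log2 scale after normexp background correction. Its value of 0.36 with *miR-139-3p* turned to −0.12 in the deposited log2 values. Of the kinesins in no class, *KIF12*, known from kidney and liver epithelium, was lower with *miR-139-3p*, with 0.377, 0.374 and 0.233 on the 3 arrays and a log2 fold change of −0.70, or −0.18 after normexp background correction. *KIF25* was at −0.37 (from −0.89 in the deposited log2 values to 0.10 after normexp) and *KIF26A* at −0.15, and all 3 lay within 0.5 of mock with *miR-139-5p*.

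Counted over all 35 kinesins with a value, *miR-139-3p* gave 16 lower and 5 higher (median −0.44), and *miR-139-5p* 6 lower and 4 higher (median −0.05). The shares of all genes were 27.9% lower and 26.5% higher with the 3p strand, and 12.3% and 10.7% with the 5p strand, which the 6 and 4 kinesins (17.1% and 11.4%) lay near. The split between lower and higher with *miR-139-3p* moved with the scaling. Among all genes past the threshold, 48.8% were higher as reported, 34.2% without scaling, 35.1% after E1A spike-in scaling and 58.7% when the 75th percentile was that of the probes well above background on every array. The median of all genes moved from −0.05 to −0.26, −0.24 and 0.09. The median of the mitotic kinesins stayed between −2.01 and −1.23 under all alternatives run, and that of the transport kinesins between −0.21 and 0.14. Its sign was therefore not settled by these arrays.

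**Figure D4:**
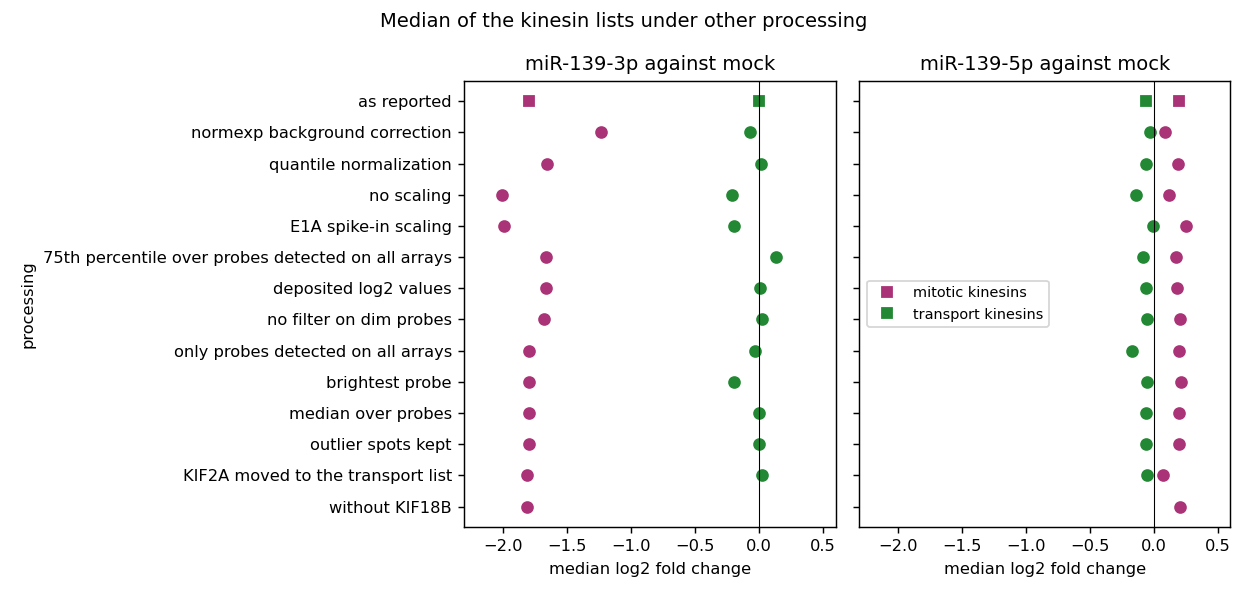
Median log2 fold change against mock (x axis) of the mitotic and the transport kinesins under each way of processing (y axis), squares for the values as reported and circles for alternatives, miR-139-3p on the left and miR-139-5p on the right. With miR-139-3p the mitotic medians lie between −2.01 and −1.23 and the transport medians between −0.21 and 0.14.

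The promoters of the classes were compared as well. Many genes of G2 and mitosis carry a cell cycle genes homology region (CHR), an element near the start site, often with CCAAT boxes upstream. RefSeq promoter windows (GRCh38.p14, 250 bases before to 50 after each start) were matched by symbol for 33 of the 41 kinesins. They were searched on both strands for TTTGAA, the usual CHR, for its variants TTTAAA (its own reverse complement) and TTCGAA (likewise), which are counted here as CHR forms, and for CCAAT. The motifs were chosen with the array values known, and the forms do not overlap CCAAT. A CHR form was in a window of 12 of 14 mitotic kinesins, 2 of 12 transport kinesins and 29.0% of 27305 genes. Within 60 bases before the start or after it, a limit set after the positions were seen, a form was found in the same number of mitotic kinesins, 12 of 14, in 0 of 12 transport kinesins and in 10.7% of all genes. CCAAT was in 10 of 14 mitotic kinesins, 4 of 12 transport kinesins and 39.7% of all genes, and both together, with the form near the start, in 10, 0 and 4.31%. Outside the mitotic class, only the ciliary kinesin *KIF24* had a form near the start, at 1, with CCAAT boxes at −154, −100 and −47. *KIF24* was lower with *miR-139-3p*, at −1.19. *KIF13A* and *KIF12* were lower too and had no form in a window. No window was matched for *KIF13B* and *KIF21B*, transport kinesins that were also lower, so the 12 transport kinesins leave them out. A match describes these letters only and is not evidence that a factor binds.

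**Figure D5:**
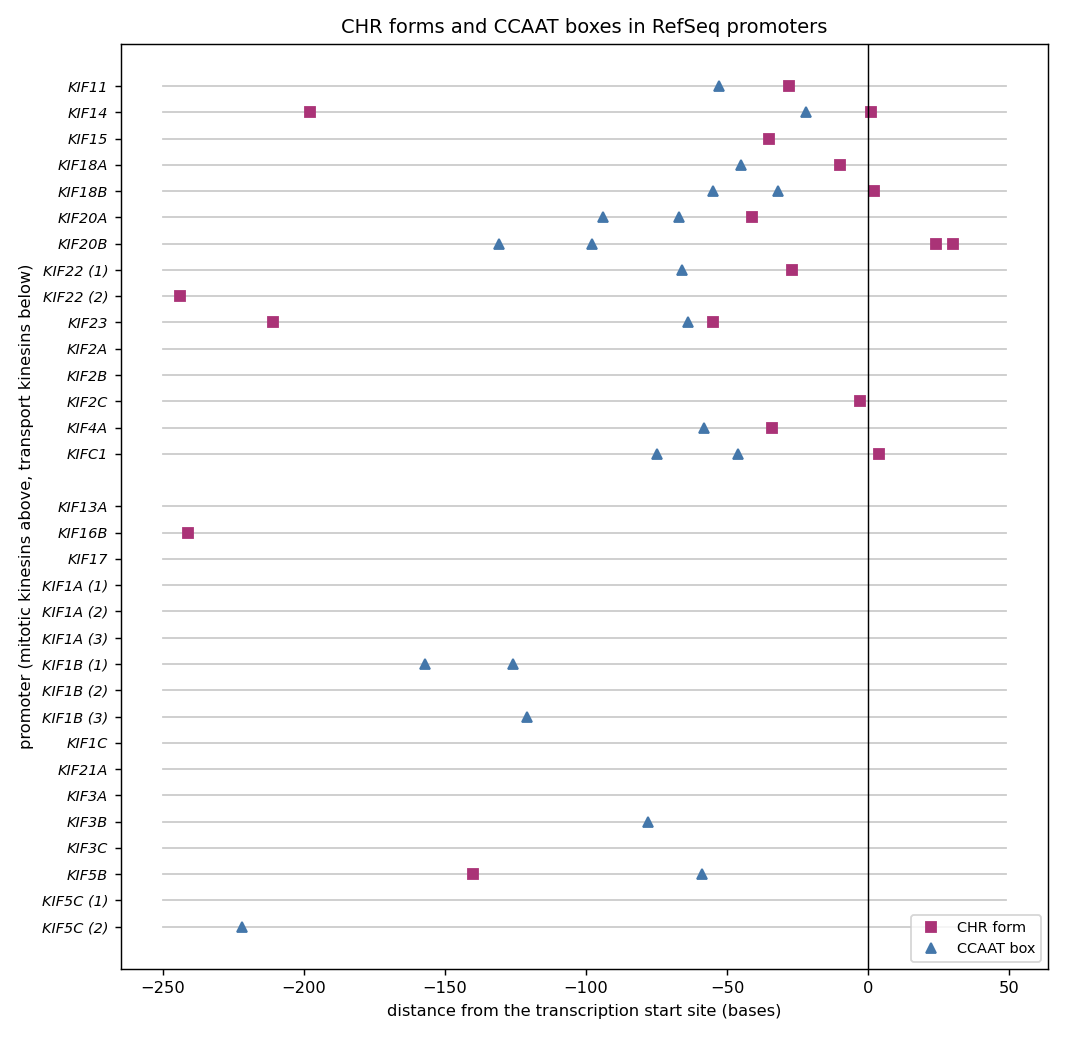
Position of CHR forms (squares) and CCAAT boxes (triangles) in bases from the transcription start site (x axis) in the RefSeq promoters of mitotic kinesins (upper block) and transport kinesins (lower block), with 1 line per promoter (y axis) and a number in brackets where a gene has several. CHR forms lie near the start in 12 of 14 mitotic kinesins, all but KIF2A and KIF2B, and in 0 of 12 transport kinesins. The ciliary kinesin KIF24, which also has a form near the start, is in neither block.

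The 150 bases from 100 before the start are shown for mitotic kinesins that were lower after *miR-139-3p*, from several families, then for *KIF2A*, one of the 2 measured mitotic kinesins that did not pass the threshold, and for one of the promoters of *KIF1A*, the kinesin highest after *miR-139-3p*. Capitals mark CHR forms and CCAAT boxes on either strand, so that ATTGG is a CCAAT box read from the other strand. All coordinates are GRCh38.p14 from RefSeq, and each sequence is written in the direction of transcription.
KIF4A (chrX:70290004-70290153, plus strand): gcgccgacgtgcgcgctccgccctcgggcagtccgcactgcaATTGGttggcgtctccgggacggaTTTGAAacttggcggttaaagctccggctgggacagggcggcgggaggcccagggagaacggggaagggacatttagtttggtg
KIF2C (chr1:44739737-44739886, plus strand): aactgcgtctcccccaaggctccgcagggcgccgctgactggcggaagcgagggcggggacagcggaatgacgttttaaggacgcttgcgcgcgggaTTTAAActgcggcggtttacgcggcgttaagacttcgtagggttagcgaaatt
KIF20A (chr5:138179012-138179161, plus strand): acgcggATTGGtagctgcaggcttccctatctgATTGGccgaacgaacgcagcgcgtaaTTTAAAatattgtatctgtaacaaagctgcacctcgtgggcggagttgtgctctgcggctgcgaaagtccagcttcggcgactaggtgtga
KIF11 (chr10:92593030-92593179, plus strand): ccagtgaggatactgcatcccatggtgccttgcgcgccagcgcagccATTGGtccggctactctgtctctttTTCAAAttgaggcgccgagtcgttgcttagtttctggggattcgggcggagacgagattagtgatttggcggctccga
KIF23 (chr15:69414249-69414398, plus strand): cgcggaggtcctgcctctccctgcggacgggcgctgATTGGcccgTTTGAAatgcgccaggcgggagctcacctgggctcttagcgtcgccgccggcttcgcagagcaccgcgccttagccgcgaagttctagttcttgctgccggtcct
KIF18B (chr17:44947724-44947873, minus strand): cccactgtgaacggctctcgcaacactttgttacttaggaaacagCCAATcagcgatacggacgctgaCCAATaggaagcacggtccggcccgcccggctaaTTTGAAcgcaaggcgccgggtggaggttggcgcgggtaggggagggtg
KIF2A (chr5:62306106-62306255, plus strand): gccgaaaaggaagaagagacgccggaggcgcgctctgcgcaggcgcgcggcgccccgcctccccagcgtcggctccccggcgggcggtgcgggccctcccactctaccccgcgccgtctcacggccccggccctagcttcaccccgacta
KIF1A (chr2:240821354-240821503, minus strand): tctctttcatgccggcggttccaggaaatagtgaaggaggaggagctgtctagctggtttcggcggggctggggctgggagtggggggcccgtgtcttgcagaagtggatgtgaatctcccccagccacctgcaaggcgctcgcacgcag
In *KIF4A*, *KIF11* and *KIF23* a single CCAAT box stands upstream of the CHR form, at −58, −53 and −64 bases against −34, −28 and −55. *KIF20A* and *KIF18B* have 2 boxes each, and *KIF2C* has the CHR form at −3 and no CCAAT box in the window. *KIF2A* and the *KIF1A* promoter shown hold neither. The other mitotic kinesin that did not pass the threshold was *KIF20B*, at −0.44, and its promoter is not printed. It has CHR forms at 24 and 30 bases after the start and CCAAT boxes at −131 and −98. Every mitotic kinesin called lower also had a CHR form near the start. Whether the motifs bear on the array values was not tested.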

How the data were processed

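Gene expression in A549 cells was measured on 3 Agilent 1-colour arrays, 1 per condition, with groups taken from the sample labels. The authors deposited spot intensities from Agilent Feature Extraction 12.1.1.1, background-subtracted and not normalized between arrays. They also deposited a log2 table, whose columns matched the quantile-normalized log2 signals of the same arrays (median absolute difference 0.0025, median of each column 2.21). It served as an alternative.

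From the intensities, each signal was divided by the 75th percentile of its array. Outlier spots (614 for mock, 935 for *miR-139-5p*, 1526 for *miR-139-3p*) were left out, spots of a probe were averaged, and a probe was well above background where at least 50% of its spots were. Where only one side was, the bound set the bright signal against the higher of the dim signal and the lowest signal well above background on that array. A gene's value was the mean over its measured probes, or a bound if it had none. Accessions were named through RefSeq (24751 of 25277 probes with an NM accession matched), and kinesin roles come from general knowledge.

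Members, classes, partner lists and promoter motifs were chosen with earlier results of these data known. Given in full are every mitotic kinesin well above background and every other kinesin past 0.5 against mock. Partner lists are given by counts, median, lowest and highest gene. In all, 14 alternatives were tried, on background correction, scaling, dim probes, probe choice, outliers, threshold, deposited values and list membership. The steps were tested on simulated data. Normexp (offset 50) was run in limma 3.58.1 under R 4.3.3, and all else in Python 3.11.15 (numpy 2.4.6, pandas 2.3.3, matplotlib 3.10.9).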

Additional observations from a re-analysis of the deposited data

Results flagged for a closer look

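In 2 kinesins the strands pointed opposite ways against mock, each by over 0.5 on the log2 scale. *KIF1A*, the synaptic vesicle motor, was at 2.88 with *miR-139-3p* and −0.51 with the other strand, *miR-139-5p*. *KIFC2*, a motor best known from neurons, was at 0.56 with the 3p and −0.70 with the 5p strand. Not every alternative kept both signs past the threshold: *KIF1A* was below −0.5 with *miR-139-5p* under 7 of 11 and *KIFC2* above 0.5 with *miR-139-3p* under 6 of 11, and neither gene passed both in the deposited log2 values. With 1 array per condition the differences were not tested, and both comparisons of a gene use the same mock array.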

How the results depend on the processing

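No paired analysis was possible because each condition had 1 array and no result comes from a test. Of the medians and counts over all kinesins, 133 values under alternatives were within the limit set for them (1.5 times for a count) and 14 were not. Normexp background correction, which pulls dim signals together, put the mitotic median at −1.23 for *miR-139-3p* against mock and −1.36 between the miRNA arrays. It left 1 kinesin higher after the 3p strand (10.1% of all genes), 1 lower and 2 higher after the 5p strand (4.23% and 3.47%), and 3 higher in *miR-139-3p* against *miR-139-5p* (10.3%). Quantile normalization, no scaling, E1A scaling and the deposited log2 values each gave 3 kinesins higher with *miR-139-3p* in place of 5, where 19.6% to 21.8% of all genes were higher. At a threshold of 1, 2 kinesins were higher after the 3p strand (12.3% of all genes), 0 were lower and 1 was higher after the 5p strand (2.38% and 1.92%), and 12 were lower between the miRNA arrays (12%). The cause of these moves was not tested. Of values for single genes, 1050 were within the limit and 99 were not, of which 58 moved nearer to 0, 32 farther from it and 9 to its other side. Signal over background limits the dim genes, of which *KIF18B*, *KIF5C*, *KIF9* and *KIF25* lay nearest to it.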
